A study of Cicer arietinum with 8 samples.

Results

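The drought response of the root was examined in ICC4958, a drought-tolerant chickpea genotype (DT), by comparing transcript levels in drought-stressed (droughted) roots, DT(D), with those in watered roots, DT(C). Levels are in FPKM, the fragments on a locus scaled to transcript length and to the number of mapped fragments. Of 30978 loci in the deposited values, the 20326 loci with an FPKM of at least 1 in DT(C) or DT(D) entered the comparison, written DT(D/C). Of the 10652 loci left out, 7363 were listed at 0 in both conditions and 3289 were above 0 but under 1. The higher of both values was 1.00 FPKM for the locus just inside this limit and 0.998 for the locus just outside it.

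The samples were roots of seedlings kept in a growth chamber and harvested at 27 days of age. Drought stress, per the labels, was a period of 11 days without water from day 16, and control plants received water on alternate days; the paper's methods give another start and length of the stress. The drought-sensitive genotype ICC1882 (DS) went through the same treatments and is used here only beside DT. The values of DS(D) sum to less than those of DS(C), and rescaling both to the same sum would add 0.47 to each DS log2 ratio below. Centring the DS ratios on their median instead would add only 0.006. Each of the 4 conditions had 2 libraries, which makes 4 of the 8 libraries in the study DT libraries, and both libraries of a condition were pooled in 1 value. The values therefore hold no spread between libraries and nothing was tested. Each level given is the authors' pooled value, and each difference sets 1 such value against another. A locus is called higher under drought at a log2 ratio of DT(D) to DT(C) of at least 1, a 2-fold difference, and lower once this ratio is -1 or less. The depth behind a value is not known from the deposited values, so no interval is given. No root or cell type marker could be matched to the gene identifiers, so the labelled tissue was not checked against markers. In whole roots, fewer cells of a type and less RNA per cell cannot be told apart.

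When soil dries, root cells lose water and turgor, and plants respond through abscisic acid, through lipid and calcium signals at the membrane, and through transcription factors such as the dehydration-responsive element binding (DREB) proteins. Reactive oxygen accumulates under such stress and is removed by ascorbate, glutathione and the enzymes that use or restore them. Glycolysis and the pentose phosphate pathway supply the carbon skeletons, ATP and NADPH on which these defences draw.

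Among the genes that the paper names, the tolerant roots had far less transcript of DREB and of the AP2-EREBP gene with the adjacent identifier, of the signalling enzyme PI-PLC and of the receptor-like protein RLP21 under drought. They had more transcript of the antioxidant enzyme DHAR2, of the gluconeogenic enzyme PEPCK1 and of the aldolases FBA1 and FBA2. Of 109 such genes, put in 11 lists by role, 106 entered the comparison. Among these, 8 (7.55%) were higher and 13 (12.3%) were lower, against a background of 5.03% higher (1023 loci) and 8.88% lower (1804 loci) among all loci that entered. The median log2 ratio was 0.10 over the listed genes and 0.02 over all 20187 loci with a ratio. Many of the listed genes were picked by the study on these same samples, so their directions are not independent evidence.

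**Figure D1:**
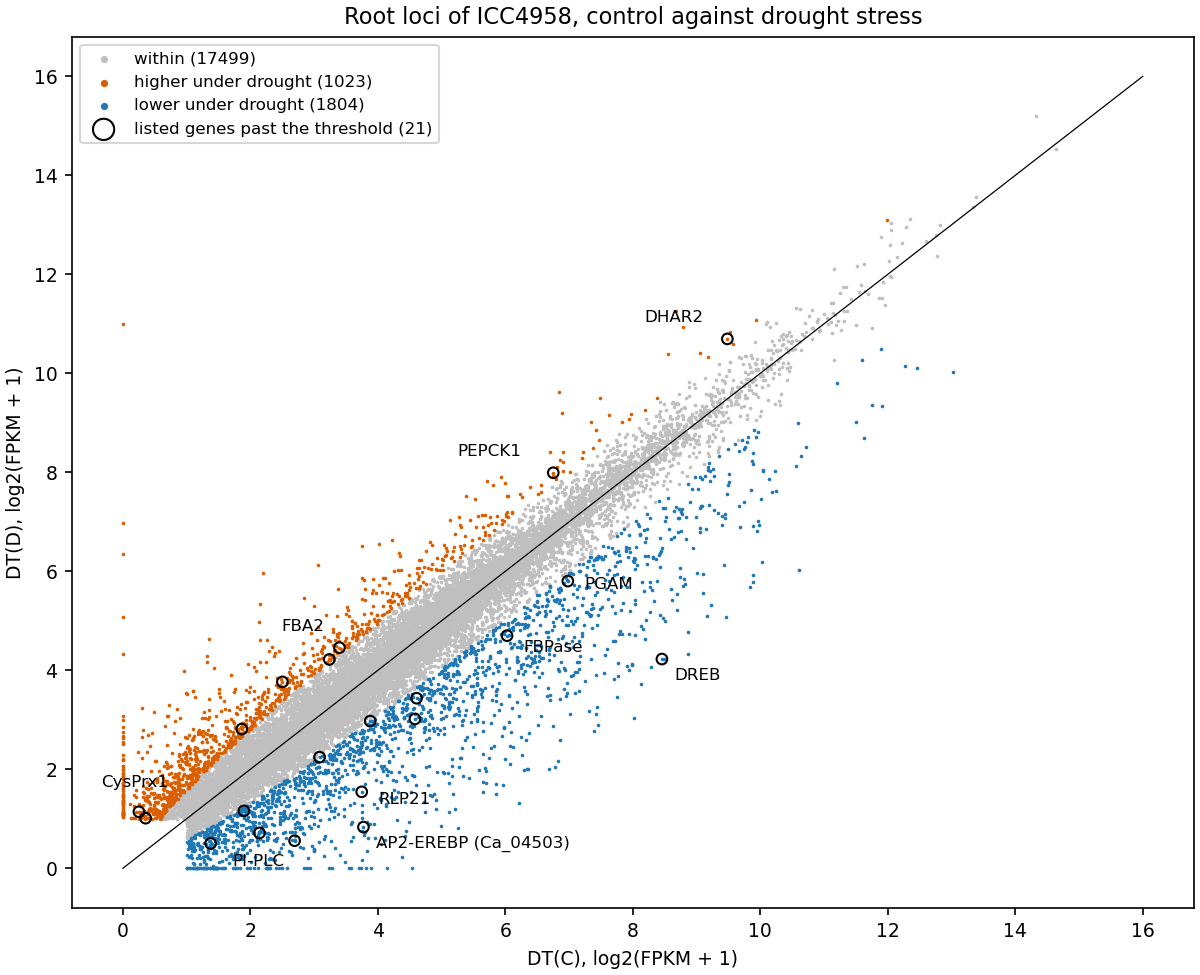
Each point is a locus that entered DT(D/C), with log2(FPKM + 1) in DT(C) on the horizontal axis and in DT(D) on the vertical axis; the line marks equal values, colours mark loci called higher (1023) or lower (1804), and open circles mark the 21 listed genes past the threshold. Among loci above 0 in both conditions, the lower loci reach further from the line than the higher loci at high expression, and DREB lies among them. A locus listed at 0 in DT(C) and at 2039 FPKM in DT(D) lies further off, on the higher side.

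The genes with the lowest log2 ratios on the lists were transcription factors of the QTL-hotspot, a region of the chickpea genome that carries quantitative trait loci for drought tolerance traits. DREB (Ca_04504) had 350.2 FPKM in watered and 17.7 in droughted DT roots, beside 122 and 10.1 in those of DS. Both drought-stressed values thus lay far under both watered values, and the watered tolerant root had the highest level. DREB is on the lists for a high level in DT(C) relative to DS(C), which favours a lower call in DT(D/C). The log2 ratio was -4.31 in DT, a 19.8-fold lower level under drought, and -3.59 in DS. The gene with the preceding identifier number, AP2-EREBP (Ca_04503), of the same family of plant transcription factors, had 12.7 FPKM in watered and 0.780 in droughted DT roots, beside 5.41 and 0.297 in those of DS. Its order over the 4 conditions was that of DREB at a lower level, with log2 ratios of -4.02 in DT and -4.19 in DS. It entered DT(D/C) through DT(C) alone, which set the direction of its call. With short reads, fragments of such related genes may be split between them, and the share was not tested.

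Most other QTL-hotspot transcription factors stayed within the threshold. The list of 12 had a median log2 ratio of -0.17 in DT(D/C), with 1 higher and 3 lower, and 6 lay above 0 and 6 below. The MADS-box gene (Ca_04518), of a family known for control of development, had 13.7 FPKM in watered and 6.85 in droughted DT roots, beside 7.97 and 11.1 in those of DS. Its log2 ratio of -1.002 in DT(D/C) sits at the threshold and was -0.91 with 1 added to both values. OFP (Ca_04584), an ovate family protein of a group known in Arabidopsis as transcriptional repressors, was the 1 higher gene, with 2.64 FPKM in watered and 6.02 in droughted DT roots, beside 7.69 and 5.76 in those of DS. The watered tolerant root was the low one of the 4 conditions here. The log2 ratio of OFP was 1.19 in DT(D/C), or 0.95 with 1 added to both values.

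Of 10 QTL-hotspot genes that do not encode transcription factors, 4 were lower and none was higher. Among all loci that entered, 8.88% were lower and 5.03% higher. All 4 lower genes are on the list for a high level in DT(C) relative to DS(C), which favours a lower call in DT(D/C). Nothing is therefore read from this direction. RLP21 (Ca_04471), a receptor-like protein of the cell surface, had 12.4 FPKM in watered and 1.92 in droughted DT roots, beside 3.69 and 3.43 in those of DS. The watered tolerant root stood above the other conditions, and the sensitive root hardly differed between treatments, with log2 ratios of -2.70 in DT and -0.10 in DS. A cytochrome P450 of family 76 (Ca_04587), whose relatives oxidise specialised metabolites, had 3.42 FPKM in DT(C) and 0.640 in DT(D), a log2 ratio of -2.42, and was under 1 FPKM in both DS conditions. It entered through DT(C) alone, which set the direction of its call. The gene named SufD/PNT (Ca_04545) had 2.73 and 1.23 FPKM, a log2 ratio of -1.14 that was -0.74 with 1 added to both values. The myosin heavy chain-related gene (Ca_04474) had 7.49 FPKM in watered and 3.74 in droughted DT roots, beside 2.68 and 5.25 in those of DS. Its log2 ratio was -1.002 in DT, or -0.84 with 1 added to both values, and 0.97 in DS. At the other end of this list, a PLAT/LH2 lipoxygenase (Ca_04606), of the enzymes that oxygenate membrane fatty acids, had 11.6 and 16.8 FPKM in DT, a log2 ratio of 0.54. The most abundant member, a membrane-associated progesterone binding protein (Ca_04482), had 319.5 FPKM in DT(C) and 320.5 in DT(D) and a log2 ratio of 0.00. The median over this list was -0.34.

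Of the 21 listed genes past the threshold, 11 have a pair of RT-qPCR primers in the study's primer list, and these are the sequences of the transcripts at hand. The pairs of 4 genes on which the results turn are shown, each 5′ to 3′ with the last 5 bases, at the end from which the polymerase extends, in capitals. DREB and PI-PLC were lower under drought, and DHAR2 and PEPCK1 were higher.
DREB forward: ggtgtgtgaagtgagggAACCT
DREB reverse: cgccatctcgggatTAGGA
PI-PLC forward: tgagcagcgattgcaGTGAT
PI-PLC reverse: caattactcgcacacctcTTTGC
DHAR2 forward: gctcattcgtcagctttCTGAA
DHAR2 reverse: ccaatgcttgctctgTTCCA
PEPCK1 forward: gaggattgtatcagccagAGCAT
PEPCK1 reverse: gggtgggtcggatacACATG
The 11 pairs are 19 to 24 bases long with a GC content of 40.9 to 60%. Their positions in the genome were not looked up, as no genome was used here.

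**Figure D2:**
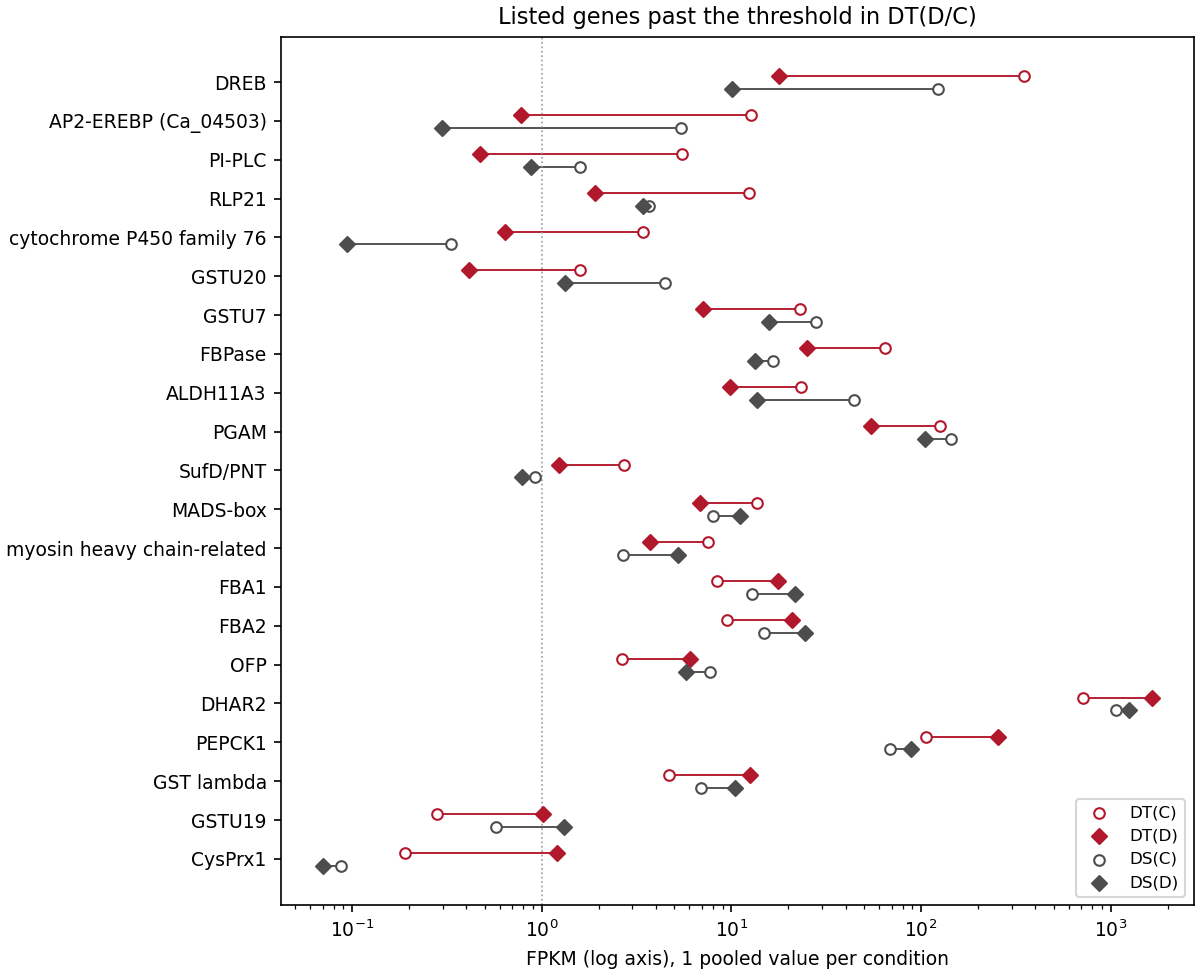
FPKM on a log axis in both treatments of DT and DS for the 21 listed genes past the threshold in DT(D/C), ordered by log2 ratio, with open circles for watered and diamonds for drought-stressed roots and 1 pooled value per symbol. The lines of DREB and AP2-EREBP (Ca_04503) are long in both genotypes, whereas those of RLP21, FBPase and PEPCK1 are longer in DT than in DS.

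In phosphoinositide signalling, 1 of the enzymes that make second messengers was lower in droughted tolerant roots, and the kinases of phosphoinositides and inositol phosphates on the list stayed within the threshold. PI-PLC (Ca_12485), phosphoinositide-specific phospholipase C, cleaves a membrane phosphoinositide into a soluble inositol phosphate and diacylglycerol. It had 5.47 FPKM in watered and 0.471 in droughted DT roots, beside 1.59 and 0.879 in those of DS. The tolerant root thus held both the highest value, when watered, and the lowest, under drought, and the DS values lay between. Both droughted values were under 1 FPKM, so their order rests on low values. The log2 ratio was -3.54 in DT, or -2.14 with 1 added to both values, and -0.86 in DS. PI-PLC entered through DT(C) alone, which set the direction of its call. It was the 1 gene past the threshold, and another phospholipase C gene was within it, among the 9 of inositol phosphate and diacylglycerol turnover, of which 5 lay above 0 and 4 below, with a median of 0.13. The highest ratio of that list was that of DGK5 (Ca_14117), a diacylglycerol kinase that makes phosphatidic acid, with 37.3 and 47.9 FPKM (0.36). The most abundant member was IMPase (Ca_00700), which releases free inositol, with 252 FPKM in DT(C) and 185 in DT(D) (-0.45). None of these 8 kinases was past the threshold in DT. Their log2 ratios in DT(D/C) ran from -0.51 for PI4P5K1 (Ca_04252) to 0.83 for I4P5K2 (Ca_23825), with 6 above 0 and a median of 0.13. The most abundant of them, a second PI4P5K gene (Ca_16741), had 29.2 FPKM in DT(C) and 30.4 in DT(D).

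Glutathione S-transferases, which couple glutathione to reactive compounds, had calls in both directions in the tolerant roots. Of 6 that entered, 2 were higher and 2 were lower. Among all loci that entered, 5.03% were higher and 8.88% lower. The lambda class gene, Ca_12001, had 4.67 FPKM in watered and 12.6 in droughted DT roots, beside 6.88 and 10.4 in those of DS, a log2 ratio of 1.43 in DT and 0.60 in DS. GSTU7 (Ca_05354), of the plant-specific tau class, had 22.9 FPKM in watered and 7.09 in droughted DT roots, beside 27.9 and 15.7 in those of DS, a log2 ratio of -1.69 in DT and -0.83 in DS. The lambda class gene was lowest in the watered and highest in the droughted tolerant root, with the DS values between, whereas GSTU7 was lowest in the droughted tolerant root. Both other calls rest on low values: GSTU19 (Ca_14389) had 0.280 and 1.02 FPKM in DT (1.86, or 0.65 with 1 added to both values), and GSTU20 (Ca_23113) had 1.60 and 0.415 (-1.94, or -0.88). GSTU19 entered through DT(D) alone and GSTU20 through DT(C) alone, which set the directions of these calls. The most abundant members were within the threshold. GST7 (Ca_03442), in a locus that covers a second identifier, had 443 FPKM in DT(C) and 538 in DT(D), a log2 ratio of 0.28. The 1 member left out, GSTU25, was under 1 FPKM in all 4 conditions. The median of the 6 was 0.33.

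Peroxide-scavenging enzymes had a list median of 0.48 in DT(D/C) over 7 genes, with 2 higher and none lower. DHAR2 (Ca_18637), a dehydroascorbate reductase that restores ascorbate at the cost of glutathione, had 715 FPKM in watered and 1657 in droughted DT roots, beside 1069.7 and 1244 in those of DS. The tolerant root thus held both the lowest value, when watered, and the highest, under drought. The log2 ratio was 1.21 in DT and 0.22 in DS, and DHAR2 was among the 100 most abundant loci in DT(D). CysPrx1 (Ca_05125), a peroxiredoxin, had 0.190 FPKM in watered and 1.21 in droughted DT roots, and lay under 0.1 FPKM in DS roots of either treatment. Its log2 ratio of 2.67 became 0.89 with 1 added to both values, and it reached 1 FPKM in DT(D) alone. Its entry through DT(D) alone set the direction of its call, and its ratio raises the median of the list. APX6 (Ca_01758), an ascorbate peroxidase, had the lowest ratio of the list, with 12.9 FPKM in DT(C) and 6.71 in DT(D) (-0.95). Glutathione-disulfide reductase (Ca_24310) is listed at 0 in all 4 conditions, and GAPDHC1 (Ca_08775) of glycolysis is as well. Whether a listed 0 means an absent transcript was not tested.

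None of the 6 genes of glutathione synthesis and breakdown was past the threshold, though 5 lay above 0 and the median was 0.24. GGT4 (Ca_15517), a gamma-glutamyl transferase that starts the breakdown of glutathione, had 9.92 FPKM in DT(C) and 19.3 in DT(D), a log2 ratio of 0.96. The related GGT1 (Ca_12669) had 21.9 and 17.1 FPKM (-0.36), and the most abundant member, a cytosol aminopeptidase (Ca_03329), had 131 and 159 (0.28). Likewise, none of the 8 genes of the pentose phosphate pathway and NADPH supply was past the threshold, with 7 above 0 and a median of 0.15. Their log2 ratios in DT ran from -0.19 for G6PDH6 (Ca_14672), of the dehydrogenases that open the pathway, to 0.45 for a transketolase (Ca_05041), which reshuffles its sugars. The most abundant, a second 6PGDH gene (Ca_16508), had 283 FPKM in DT(C) and 330.5 in DT(D).

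In upper glycolysis, a pair of aldolase genes was higher and FBPase, which works against the glycolytic direction, was lower. FBA2 (Ca_15426) had 9.54 FPKM in watered and 21.0 in droughted DT roots, beside 14.9 and 24.4 in those of DS, with log2 ratios of 1.14 in DT and 0.71 in DS. FBA1 (Ca_15425) had 8.43, 17.6, 12.9 and 21.6 FPKM in the same order, with log2 ratios of 1.06 in DT, or 0.98 with 1 added to both values, and 0.74 in DS. Both aldolases, which split fructose bisphosphate into triose phosphates, were lower in the watered tolerant root than in the watered sensitive root, and the droughted value was the higher one in each genotype. Their identifiers are adjacent and such copies can share short reads, so the 2 values may not be separate measurements. FBPase (Ca_00102), which removes a phosphate from fructose bisphosphate, had 64.2 FPKM in watered and 24.97 in droughted DT roots, beside 16.5 and 13.2 in those of DS. Both DT values lay above both DS values, and the log2 ratio was -1.36 in DT and -0.32 in DS. The paper's discussion gives this gene as up-regulated in DT(D/C), the opposite direction to these values. The most abundant of the 17 genes, another aldolase (Ca_27205), had 1927 FPKM in DT(C) and 2177 in DT(D), a log2 ratio of 0.18. Over the list, 12 lay above 0 and 5 below, with a median of 0.20.

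In lower glycolysis of the tolerant roots, PEPCK1 was higher, PGAM was lower and the other genes stayed within the threshold. PEPCK1 (Ca_11524), phosphoenolpyruvate carboxykinase, turns oxaloacetate into phosphoenolpyruvate. It had 107 FPKM in watered and 253 in droughted DT roots, beside 68.5 and 88.7 in those of DS. Both DT values exceeded both DS values, and the log2 ratio was 1.25 in DT and 0.37 in DS. PGAM (Ca_09253), a phosphoglycerate mutase in a locus that covers a second identifier, had 125 FPKM in watered and 54.8 in droughted DT roots, beside 145 and 105 in those of DS, with log2 ratios of -1.19 and -0.46. The droughted tolerant root was the low one of the 4 conditions. The paper's discussion gives PGAM as up-regulated in DT(D/C), written there as a protein, whereas these values are of RNA. Enolase (Ca_00761), which makes phosphoenolpyruvate from phosphoglycerate, was the most abundant of the list and had 2122 FPKM in DT(C) and 2214 in DT(D), a log2 ratio of 0.06. Of the 12 genes that entered, 7 lay above 0 in DT(D/C) and 5 below, with a median of 0.03, beside 0.04 for all 2283 loci with a mean of at least 100 FPKM in DT. In DS(D/C), 1 of the 12 lay above 0 and 11 below, with a median of -0.58, beside -0.50 for the same abundant loci. With DS rescaled to equal sums, these DS medians were -0.12 and -0.03. With the DS ratios centred on their median, the same 2 medians were -0.58 and -0.49. Not all of the 12 are that abundant. Genes such as ENO1, plastidic PK beta, PPDK and 1 PK gene (Ca_06556) were under 100 FPKM in both DT conditions. Loci with a mean of 10 to 100 FPKM in DT had a DS median of -0.03 without rescaling, so the abundant loci are only a partial match.

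On the list of pyruvate and acetyl-CoA genes, which also holds aldehyde dehydrogenases, 1 of 11 was past the threshold in DT, and it was 1 of the latter. The listed genes of the pyruvate dehydrogenase complex and of pyruvate decarboxylase (PDC2) stayed within the threshold. ALDH11A3 (Ca_03341), in Arabidopsis a glyceraldehyde phosphate dehydrogenase that yields NADPH, had 23.4 FPKM in watered and 9.82 in droughted DT roots, beside 44.5 and 13.7 in those of DS. It was lower under drought in both genotypes, with log2 ratios of -1.25 in DT and -1.70 in DS. LPD2 (Ca_03055), a dihydrolipoamide dehydrogenase of the pyruvate dehydrogenase complex, had the highest ratio of the list and its highest FPKM in DT(D), with 170 FPKM in DT(C) and 229 in DT(D) (0.42). The list had a median of 0.03, with 6 above 0 and 5 below.

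**Figure D3:**
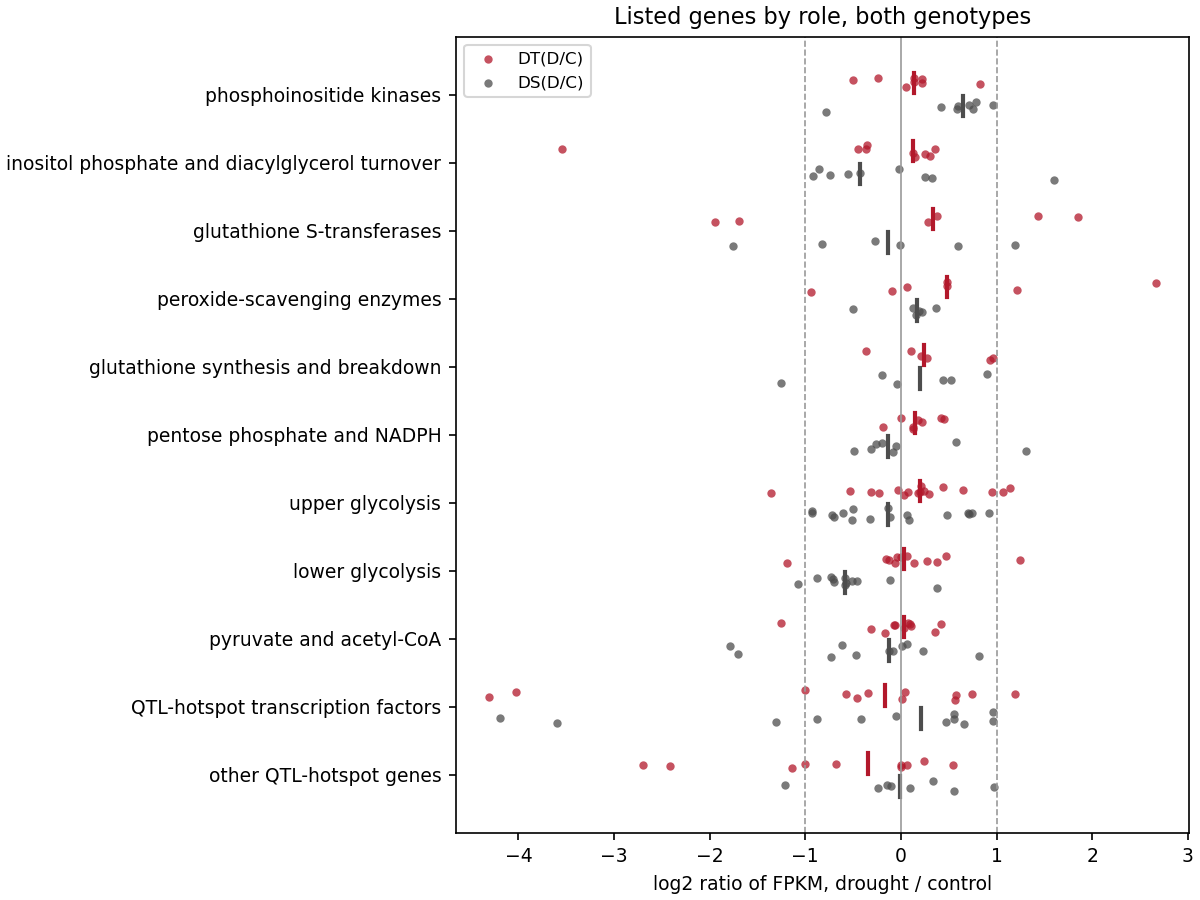
Log2 ratios of FPKM under drought to control for the listed genes, 1 point per gene and genotype in 11 rows by role, with vertical bars at the list medians and dashed lines at 1 and -1; points are spread vertically for visibility. In DT(D/C) the medians lie between -0.34 for other QTL-hotspot genes and 0.48 for peroxide-scavenging enzymes, and the lowest points are DREB, AP2-EREBP (Ca_04503) and PI-PLC. The median of 0.48 includes CysPrx1, which entered through its DT(D) value alone.

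The calls of the metabolic and signalling lists and of the QTL-hotspot lists were counted apart. Of 84 metabolic and signalling genes that entered, 7 were higher and 6 lower, with 57 above 0 and a median of 0.13. Of the 22 QTL-hotspot genes, 1 was higher and 7 were lower, with 11 on each side of 0 and a median of -0.17. Over all loci that entered, 5.03% were higher and 8.88% lower, and 52.4% of the ratios were above 0. The lists were not compared by a test, and many metabolic and signalling genes were also picked by the study on these same samples. DREB, RLP21, SufD/PNT, the cytochrome P450 and the myosin heavy chain-related gene, 5 of the 7 lower genes, are on the lists for a high level in DT(C) relative to DS(C). That choice uses the same DT(C) values and favours a lower call in DT(D/C), so nothing is read from the direction of the QTL-hotspot calls. In DS(D/C), 17 of the 21 genes had the same direction, or 15 with DS rescaled to equal sums. With the DS ratios centred on their median, 17 did. The 21 include CysPrx1, SufD/PNT and the cytochrome P450, which were under 1 FPKM in both DS conditions. Past the threshold in the same direction were 5. Of all loci called in DT that entered DS(D/C), 771 (47.4%) of 1628 lower loci were lower there, and 224 (25.7%) of 873 higher loci were higher. By sign alone, 1289 of the 1628 lay below 0 and 622 of the 873 above 0. Over all 20093 loci that entered DS(D/C), 8.21% were higher and 8.66% lower. The DS shares over all loci are of values that were not rescaled. The log2 ratio was larger in size in DT than in DS for 19 of the 21, which were selected for their size in DT.

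Over all loci, most transcripts of the tolerant root kept their level: 17499 loci (86.1%) stayed within the threshold, and the middle 50% of the log2 ratios lay between -0.29 and 0.29. The lower tail was longer, with 5% of the ratios below -1.58 and 5% above 0.98, although 52.4% of the ratios were above 0. The balance of lower and higher loci varied with the size of the difference and with how loci listed at 0 were counted. Among loci above 0 in both conditions, 955 had a log2 ratio of at least 1 and 1733 of at most -1. At 2 these were 178 and 709, at 3 they were 42 and 288, and at 4 they were 8 and 106. In DS(D/C), the numbers at 3 were 122 higher and 127 lower. With loci listed at 0 in one condition counted as well, 1.21% of all loci that entered were higher and 3.84% lower past 2 in DT, and 0.541% and 1.77% past 3. Counted this way, lower loci per higher locus were 1.76 at 1, 3.17 at 2 and 3.36 at 2.5, then 2.33 at 4 (76 higher, 177 lower) and 1.33 at 5 (69 and 92), where most higher loci are those listed at 0 in DT(C). The DS shares were 2.15% and 2.61% past 2 and 1.06% and 1.01% past 3. The DS numbers were not rescaled, and rescaling to equal sums would shift them toward higher loci.

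**Figure D4:**
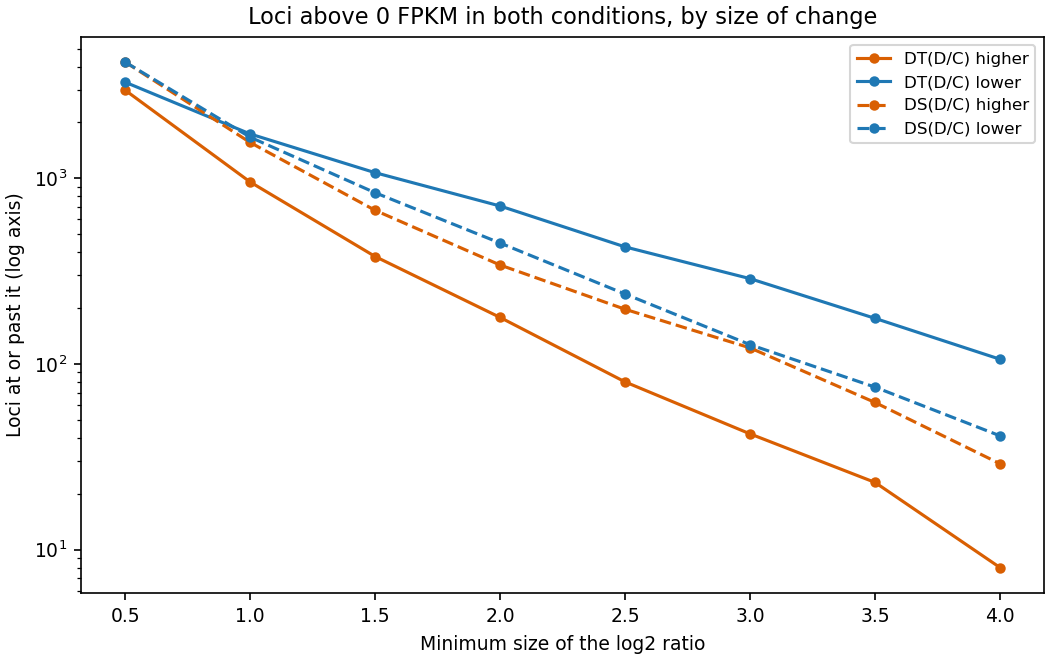
Number of loci above 0 FPKM in both conditions, on a log axis, whose log2 ratio is at or past the size on the horizontal axis, in each direction, with solid lines for DT(D/C) and dashed lines for DS(D/C). In DT(D/C) the lines separate from 955 higher and 1733 lower at 1 to 8 and 106 at 4, whereas the DS(D/C) lines lie close together up to 3. The DS values were not rescaled.

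Lower loci came from higher expression levels than higher loci did, when each is taken in the condition where it was most abundant. The median lower locus had 18.5 FPKM in DT(C) and 4.80 in DT(D), and the median higher locus had 1.996 and 6.02, whereas loci within the threshold had medians of 16.0 in each. In watered and droughted DS roots, the same lower loci had medians of 11.8 and 6.64 FPKM, and the higher loci 3.02 and 3.87. When loci were put in classes by their mean FPKM in DT, 7.47% were higher and 9.50% lower among 7667 loci at 1 to 10 FPKM. From 10 to 100 FPKM (9984 loci) the shares were 2.71% and 6.97%, and at 100 FPKM or more (2283 loci) they were 2.45% and 11.7%. Of the changed loci, 44.0% were higher in the first of these classes, 28.0% in the second and 17.3% in the third. Past a log2 ratio of 2, the class of 100 FPKM or more held 8 higher and 124 lower loci. The median log2 ratio was near 0 in all 3, at 0.01, 0.02 and 0.04, so the difference lies in the tails. Under a mean of 1 FPKM, 31.4% of 392 loci were higher and 28.8% lower; these had to reach 1 FPKM in one condition and lie below it in the other, which sets part of those shares. In DS, the loci of the class of 100 FPKM or more had a median log2 ratio of -0.50, with 0.789% higher and 17.8% lower. With DS rescaled to equal sums this median was -0.03, and with the DS ratios centred it was -0.49. The DS shares depend on that choice and were not recounted.

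**Figure D5:**
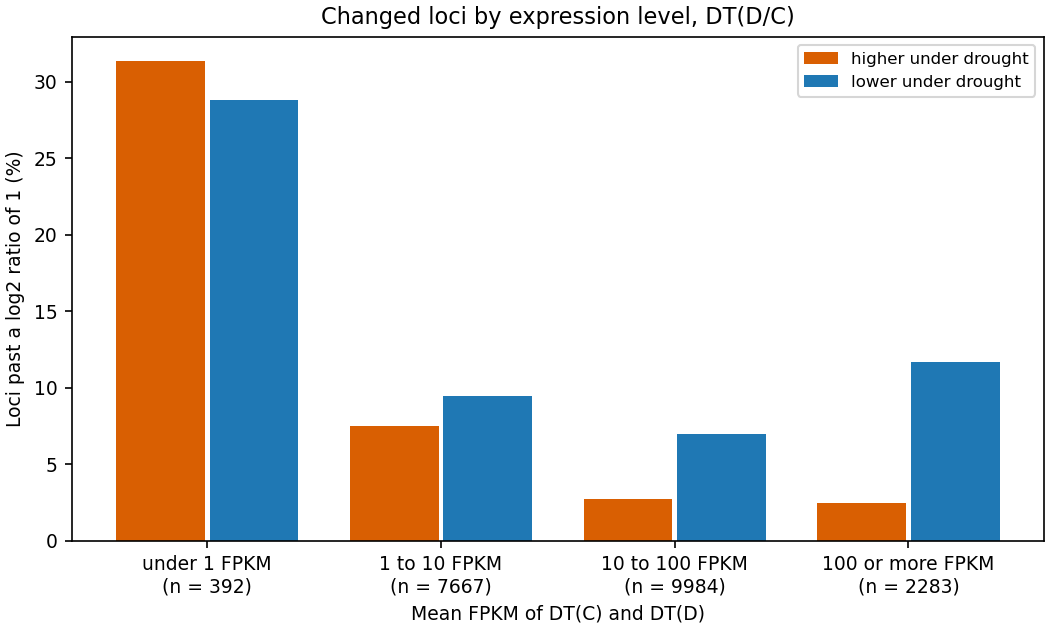
Percent of loci past a log2 ratio of 1 or -1 in DT(D/C), in 4 classes of mean FPKM over DT(C) and DT(D), with the number of loci under each class. The share of higher loci drops from 7.47% at 1 to 10 FPKM to 2.45% at 100 FPKM or more, whereas the share of lower loci is 9.50% and 11.7%.

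Moves between expression levels went down more than up. Between the classes under 1, from 1 to 10, from 10 to 100 and from 100 FPKM, 1905 loci moved down under drought, 1398 moved up and 17023 stayed. From at least 10 to under 1 FPKM moved 33 loci, against 7 the other way, and 14 dropped from at least 100 to under 10 FPKM, against 2 that climbed. A value of 0 was listed in DT(C) for 68 of the loci that entered and in DT(D) for 71, with median FPKM of 1.99 and 1.92 in the respective other condition. Of the loci listed at 0 in DT(C), 4 were above 20 FPKM in DT(D), with 32.5, 80.5, 125 and 2039 FPKM, and 3 of these were listed at 0 in both DS conditions.

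The most abundant transcripts of the tolerant root were largely shared by both conditions. Of the 100 loci with the highest FPKM in DT(C), 77 were also among the 100 highest in DT(D), and their share of the summed FPKM was 24.5% in DT(C) and 25.7% in DT(D). Of these 100, 1 was higher and 15 were lower, and the median log2 ratio was 0.03. For the 100 highest in DT(D), 8 were higher and none lower, the median was 0.20, and the share was 21.7% in DT(C) and 27.3% in DT(D). Choosing loci by their level in a condition favours calls in which that condition is the high one, so neither split is read as a direction. Differences summed over loci were 202007 FPKM gained and 228241 lost. Lower loci held 64.7% of the loss, but higher loci held only 17.9% of the gain, so most of the gain lay in loci within the threshold. The 10 loci that gained most made up 22.4% of the gain, and the 10 that lost most made up 14.4% of the loss.

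Among loci with 1 identifier, Ca_12726 gained most, with 4077 FPKM in watered and 8818 in droughted DT roots and 5409 and 6679 in those of DS, a log2 ratio of 1.11 in DT. Ca_15742 followed, with 4230 FPKM in DT(C) and 8393 in DT(D), a log2 ratio of 0.99, within the threshold. The largest losses were those of Ca_13561, with 5634 FPKM in DT(C) and 1098 in DT(D) (-2.36), and of Ca_21892, with 4917 and 1131 (-2.12). In DS(D/C), both of the latter were also lower, with log2 ratios of -1.21 and -1.81, whereas the gains were within the threshold at 0.30 and 0.17. Neither the deposited values nor the paper's text used here gives these 4 identifiers a gene name. Over all loci, the largest gain was that of a locus with 2 identifiers, from 20415 to 37546 FPKM (0.88), and the largest loss that of a locus without an identifier, from 8311 to 1048 FPKM (-2.99).

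Loci called in the tolerant root were looked up in the sensitive root, whose comparison DS(D/C) shares no samples with DT(D/C). Of the 1804 lower loci of DT, 1628 entered DS(D/C), and 771 (47.4%) were lower and 104 (6.39%) higher there, with a median log2 ratio of -0.88. Of the 1023 higher loci, 873 entered, and 224 (25.7%) were higher and 66 (7.56%) lower, with a median of 0.44. Loci within the threshold in DT had a DS median of 0.01. The share in the same direction was larger for larger differences: of loci lower past -2 in DT, 425 of 664 (64.0%) were lower past -1 in DS, and of loci lower past -3, 198 of 283 (70.0%) were. For higher loci past 2 the numbers were 74 of 178 (41.6%). None of these differences between directions was tested. Rescaling DS to equal sums would add 0.47 to each DS log2 ratio, whereas centring would add 0.006. The rescaling would raise the shares called higher in DS and reduce those called lower, and they were not recounted.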

How the data were processed

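Root RNA of 8 libraries, 2 for each treatment of each genotype, had been sequenced on the Illumina HiSeq platform. The study's texts name NGSQC Toolkit 2.3.3 for read filtering and the kabuli chickpea genome 1.0, and the submitters' processing notes name TopHat2 2.1.1, Cufflinks 2.2.1 and Cuffdiff 2.2.1. The authors deposited FPKM values, 1 per merged locus and condition, normalized for transcript length and mapped fragments, with no column of their own comparisons. How libraries were scaled to each other, and whether strand was used, is not given in the sources used here. Low values did not fall on steps of whole reads, so depth could not be read from them. The paper's supplementary table on the mapped reads of each sample was not used here.

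Log2 ratios of FPKM were taken without a pseudocount over loci with at least 1 FPKM in either condition, and differences of log2(FPKM + 1) beside them. A locus with a 0 got no ratio and was counted toward its other condition. A limma model had been foreseen for values of single libraries and could not be fitted to pooled ones. Genes named are, for each list, all members past the threshold, the members with the highest and lowest log2 ratio and the highest FPKM, together with the 2 single-identifier loci that gained and the 2 that lost most FPKM; loci named by description only, and the genes listed at 0 or under 1 FPKM, were chosen after their values were seen. Lists and gene names come from the paper. Members and lists were chosen with earlier results of these data known. Of 28269 identifiers, 0 matched the gene table at hand, and 1 gene of the paper is left out here. Alternatives were a pseudocount of 1 or 0.1, other FPKM limits, scaling, single-identifier loci and a log2 threshold of 2; both scalings of the DS ratios were chosen after seeing the data. Scripts ran in Python 3.11.15 (matplotlib 3.10.9, scipy 1.17.1, pandas 2.3.3, numpy 2.4.6) and were tested on simulated data.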

Additional observations from a re-analysis of the deposited data

Results flagged for a closer look

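Of the listed genes past the threshold in DT(D/C), 4 had log2 ratios of opposite sign in DS(D/C). CysPrx1 had 2.67 in DT and -0.32 in DS, OFP 1.19 and -0.42, MADS-box -1.002 and 0.47, and the myosin heavy chain-related gene -1.002 and 0.97. The DS ratio of CysPrx1 sets 0.070 FPKM in DS(D) against 0.087 in DS(C), and the gene did not enter DS(D/C). With DS(C) and DS(D) rescaled to the same summed FPKM, the DS ratios of CysPrx1 and OFP were 0.15 and 0.05, so their signs were then those of DT. With the DS ratios centred on their median, those of CysPrx1 and OFP were -0.31 and -0.41 and stayed opposite to DT. Medians of 2 lists also had opposite signs and lay at least 0.5 apart. Inositol phosphate and diacylglycerol turnover had 0.13 in DT and -0.43 in DS (0.03 rescaled, -0.43 centred). Lower glycolysis had 0.033 in DT and -0.58 in DS (-0.12 rescaled, -0.58 centred). With 1 pooled value per condition, none of these differences between the genotypes was tested.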

How the results depend on the processing

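No paired analysis was possible because each condition has 1 pooled value and the columns carry no replicate number, and for the same reason no library could be left out. Against 1023 higher and 1804 lower loci (36.2% of the changed loci higher), a pseudocount of 1 gave 633 higher (29.8%), no FPKM limit 2019 (43.8%), a limit of 1 FPKM in both conditions 680 (32.9%), a limit of 5 FPKM in either 569 (29.9%), and a log2 threshold of 2 gave 246 higher and 780 lower (24.0%). With both columns rescaled to the same sum, 38.4% were higher. The pseudocount acts on loci of low FPKM and the limits set which loci enter, so the count of higher loci rests on weakly expressed loci more than that of lower loci. A pseudocount of 1 ended 4 higher and 4 lower calls among the listed genes (GSTU19, CysPrx1, FBA1, OFP, GSTU20, MADS-box, SufD/PNT and the myosin heavy chain-related gene), while a pseudocount of 0.1 and rescaling each ended those of MADS-box and the myosin heavy chain-related gene. The medians of all 11 lists moved by at most 0.0671 under the 4 alternatives run on them.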

Other observations

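Loci without a gene identifier were counted apart in DT(D/C). Of 2941 loci without an identifier, 9.79% were higher and 15.8% lower, against 4.29% and 7.82% of 16840 loci with 1 identifier, and their median mean level was 6.07 FPKM against 16.7. The difference was not tested, and the part of the expression level in it was not tested either.

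The fall of DREB together with the gene of the preceding identifier number was set beside other consecutive numbers. Of 870 lower loci whose next identifier number was also measured, 127 (14.6%) were followed by a lower locus, where 7.41% of all such next loci were lower. For higher loci the numbers were 41 of 469 (8.74%), where 3.83% of all next loci were higher. Runs of at least 3 consecutive lower numbers occurred 14 times and of higher numbers 3 times, and none was longer than 3. Whether consecutive numbers are neighbours on a chromosome was not looked up, and shared reads between similar neighbours were not tested.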
